A study of Mus musculus with 12 samples.

Results

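Aminoacyl-tRNA synthetases are the enzymes that load each amino acid onto its transfer RNA. The 36 genes described here are 20 whose products work in the cytosol and 16 whose products work in mitochondria, and they were chosen by name. They were read in RNA libraries from mouse cumulus cells, the somatic cells around the oocyte, labelled as granulosa cells of antral follicles from mice of the Kunming stock, with no age given. The first group of 3 libraries came from cells that had received follicle-stimulating hormone (FSH) and fetal bovine serum (FBS) over 18 hours, and the other 3 libraries are labelled as untreated. FSH and FBS came as one treatment, and how long the untreated cells were cultured is not in the labels, so FSH, FBS and culture time cannot be told apart. Oocytectomized complexes appear in the series' design text; whether any library here came from such complexes is not labelled. The values are FPKM (fragments per kilobase of transcript, scaled to sequencing depth), and a gene's value in a library is the larger of its summed first-exon and its summed last-exon FPKM. Of 13318 genes so measured, 35 were members. No value was obtained for Mars2, and Wars2 was listed in 5 of the 6 libraries, so 34 members, all 20 cytosolic and 14 mitochondrial, entered the tests.

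Most cells keep separate cytosolic and mitochondrial enzymes for the same amino acid. In mammals 8 of the cytosolic enzymes sit in the multisynthetase complex on the scaffold proteins Aimp1, Aimp2 and Eef1e1, and the others act free of it. When an amino acid runs short, uncharged tRNA activates the kinase GCN2, eIF2alpha is phosphorylated, and the transcription factor ATF4 is made, whose known targets include many cytosolic synthetase genes. ATF4 binds, with C/EBP proteins, an element whose core reads TGATGNAA.

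The promoters below are shown because they are those that hold this core among the 13 cytosolic promoters available. A cytosolic and a mitochondrial promoter without it are shown next to them. No promoter was available for Cars, Hars, Lars, Nars, Rars, Vars and Wars, nor for the mitochondrial Hars2 and Pars2. The 300 bases run from 250 bases before to 50 bases after the annotated start, from RefSeq on GRCm38.p6, and capitals mark the core on either strand.
Aars, chr8:111033592-111033891, plus strand: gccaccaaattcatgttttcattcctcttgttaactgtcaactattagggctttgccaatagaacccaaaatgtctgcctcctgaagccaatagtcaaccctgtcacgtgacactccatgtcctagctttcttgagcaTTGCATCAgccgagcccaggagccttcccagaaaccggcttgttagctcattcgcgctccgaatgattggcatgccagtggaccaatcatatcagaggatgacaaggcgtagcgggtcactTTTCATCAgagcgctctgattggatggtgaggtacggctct
Gars, chr6:55037751-55038050, plus strand: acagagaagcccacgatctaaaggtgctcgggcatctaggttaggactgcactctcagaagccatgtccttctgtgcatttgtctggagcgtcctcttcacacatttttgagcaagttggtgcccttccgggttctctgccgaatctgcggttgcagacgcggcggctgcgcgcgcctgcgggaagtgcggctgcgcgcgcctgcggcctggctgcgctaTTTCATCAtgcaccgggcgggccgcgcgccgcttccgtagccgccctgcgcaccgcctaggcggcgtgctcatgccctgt
Iars, chr13:49681880-49682179, plus strand: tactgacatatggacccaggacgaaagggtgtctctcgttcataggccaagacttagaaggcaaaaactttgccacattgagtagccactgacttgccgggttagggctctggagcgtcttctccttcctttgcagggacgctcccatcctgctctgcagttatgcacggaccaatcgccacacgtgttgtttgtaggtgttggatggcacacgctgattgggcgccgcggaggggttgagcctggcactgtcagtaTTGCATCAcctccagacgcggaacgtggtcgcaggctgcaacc
Tars, chr15:11399609-11399908, minus strand: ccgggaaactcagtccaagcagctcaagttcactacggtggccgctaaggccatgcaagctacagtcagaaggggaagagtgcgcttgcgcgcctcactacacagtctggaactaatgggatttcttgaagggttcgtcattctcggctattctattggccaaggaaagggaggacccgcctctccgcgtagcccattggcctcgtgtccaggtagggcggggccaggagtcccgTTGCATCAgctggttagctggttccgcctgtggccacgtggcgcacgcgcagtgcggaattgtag
Yars, chr4:129189653-129189952, plus strand: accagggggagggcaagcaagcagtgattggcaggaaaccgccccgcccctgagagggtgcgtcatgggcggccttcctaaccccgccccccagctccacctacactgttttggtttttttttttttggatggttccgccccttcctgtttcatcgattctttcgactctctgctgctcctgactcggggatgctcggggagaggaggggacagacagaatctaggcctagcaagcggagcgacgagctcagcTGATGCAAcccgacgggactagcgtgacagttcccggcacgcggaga
Dars, chr1:128417367-128417666, minus strand: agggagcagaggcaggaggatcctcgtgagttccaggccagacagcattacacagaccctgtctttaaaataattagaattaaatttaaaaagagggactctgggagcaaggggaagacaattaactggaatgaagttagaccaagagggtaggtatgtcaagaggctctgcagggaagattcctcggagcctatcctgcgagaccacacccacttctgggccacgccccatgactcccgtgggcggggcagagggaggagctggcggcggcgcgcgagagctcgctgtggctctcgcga
Rars2, chr4:34614707-34615006, plus strand: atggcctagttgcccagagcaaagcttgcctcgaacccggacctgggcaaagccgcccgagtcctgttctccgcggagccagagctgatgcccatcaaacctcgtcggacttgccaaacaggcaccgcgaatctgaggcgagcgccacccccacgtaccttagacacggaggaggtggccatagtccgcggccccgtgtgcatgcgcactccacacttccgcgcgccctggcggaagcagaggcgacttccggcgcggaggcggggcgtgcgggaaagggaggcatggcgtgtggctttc
The core was searched as TGATGNAA on both strands, where N is any base. It was found in 5 of the 13 cytosolic members with a promoter in the table and in 0 of 14 mitochondrial members, against 3.97% of all 32851 promoters and 2.36% of 7116 tested genes with one. These 14 are the mitochondrial members with a promoter and include the untested Mars2 and Wars2. In Aars it begins 112 bases before the start and again at base 10 after it, in Gars 30 bases before and in Tars 15 bases before. In Iars it begins at base 8 and in Yars at base 4 of the annotated transcript. Yars alone among them carries it in the gene's own orientation; the others carry it reversed, as TTGCATCA or TTTCATCA. These matches are descriptions of the letters and not of binding.

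Libraries 1 and 2 of each group stood much closer to each other than to library 3. Over the tested genes 2.82% differed by more than 2-fold between these 2 libraries in FSH and FBS cells and 4.54% in untreated cells, against 15.9% to 22.9% for pairs with library 3. They were therefore averaged and count as 1 sample, which makes n = 2 per group. The labelled cell type was checked with 15 granulosa and cumulus markers, of which 12 to 14 were listed in each library, with sums of 578 to 770 FPKM in FSH and FBS and of 621 to 728 FPKM in untreated cells, although Foxl2 was listed in none. Of 20 oocyte markers, 2, 2 and 7 were listed in FSH and FBS libraries, against 12, 10 and 9 in untreated libraries, with sums of 5.82, 4.78 and 21.0 FPKM in FSH and FBS cells, against 16.1, 18.2 and 24.2 FPKM in untreated cells. The 8 theca and stroma markers came to 24.1, 23.0 and 30.9 FPKM in FSH and FBS cells, against 77.0, 77.1 and 61.9 FPKM in untreated cells. Of this, Acta2 made up 13.6, 14.5 and 17.5 FPKM in FSH and FBS cells, against 66.6, 67.7 and 58.3 FPKM in untreated cells. Dcn was unlisted in FSH and FBS cells and had 7.855, 7.015 and 2.99 FPKM in untreated cells. Star went the other way, with 9.44, 8.36 and 13.39 FPKM in FSH and FBS cells. In untreated libraries 1 and 2 Star had 2.355 and 1.557 FPKM, and in untreated library 3 it was unlisted. Pdgfra was listed in no library. Leukocyte markers summed to 202.7, 203.2 and 339.7 FPKM in FSH and FBS cells, against 454.0, 8.97 and 472.3 FPKM in untreated cells, nearly all of it Cd79a except in untreated library 2, where Cd79a was unlisted. No library exceeded 3.38 FPKM for the endothelial or the erythroid list. The part of such cells in the synthetase values was not tested, and in bulk RNA fewer cells of a type and less RNA per cell cannot be told apart.

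Most cytosolic synthetase genes had higher values after FSH and FBS, with only Dars and Qars below the median change of all genes. The mitochondrial genes lay on both sides of that median. The median log2 fold change was 1.27 over the 20 cytosolic genes and 0.28 over the 14 mitochondrial genes, against 0.24 over all 9022 genes tested. Relative to all genes the cytosolic median was thus 1.03 higher and the mitochondrial one 0.04 higher on the log2 scale. The cytosolic median was 0.99 above the mitochondrial one; the members were picked by name and share libraries, so this difference is described and not tested. Fold changes here are on the log2(FPKM + 1) scale, which understates the change of low genes.

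Every FSH and FBS library lay above every untreated one for 17 of the 20 cytosolic genes, against 29.4% of all genes tested, the exceptions being Dars, Farsa and Qars. For the mitochondrial genes this held for 5 of 14, Tars2, Vars2, Rars2, Aars2 and Sars2. First-exon and last-exon sums lay within 10% of each other in every library for 10 cytosolic genes, of which 8 were separated, and for 3 mitochondrial genes, of which none was. The share of separated genes among all genes whose ends agree so was not computed, so these counts have no background. The median log2 fold change was 0.9996 over those 10 cytosolic genes, against 1.27 over all 20. It was -0.22 over those 3 mitochondrial genes, against 0.28 over all 14. For 13 members the sums were over 2-fold apart, or an end was unlisted, in at least 1 library. They were Cars, Eprs, Gars, Qars, Wars, Yars, Aars2, Cars2, Hars2, Lars2, Tars2, Vars2 and Yars2. Eprs had no last exon listed in any library. As deposited, no member had all FSH and FBS libraries below all untreated ones, which 9.54% of genes did. A log2 fold change above 1 was found for 14 cytosolic genes and for 1 mitochondrial gene, Tars2, against 10.6% of all genes. By median of ratios the cytosolic count of separated genes was again 17, against 18.4% of all genes. It was 16 after rescaling to equal sums and after quantile normalization, against 17.5% and 18.8%, and the gene that dropped out in both was Kars. The mitochondrial counts were 4, 2 and 4 under these scalings. Some members then had all FSH and FBS libraries below all untreated ones. They were Qars and Hars2 by median of ratios (17.6% of all genes), Pars2 with equal sums (14.0%) and Hars2 after quantile normalization (18.3%).

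**Figure D1:**
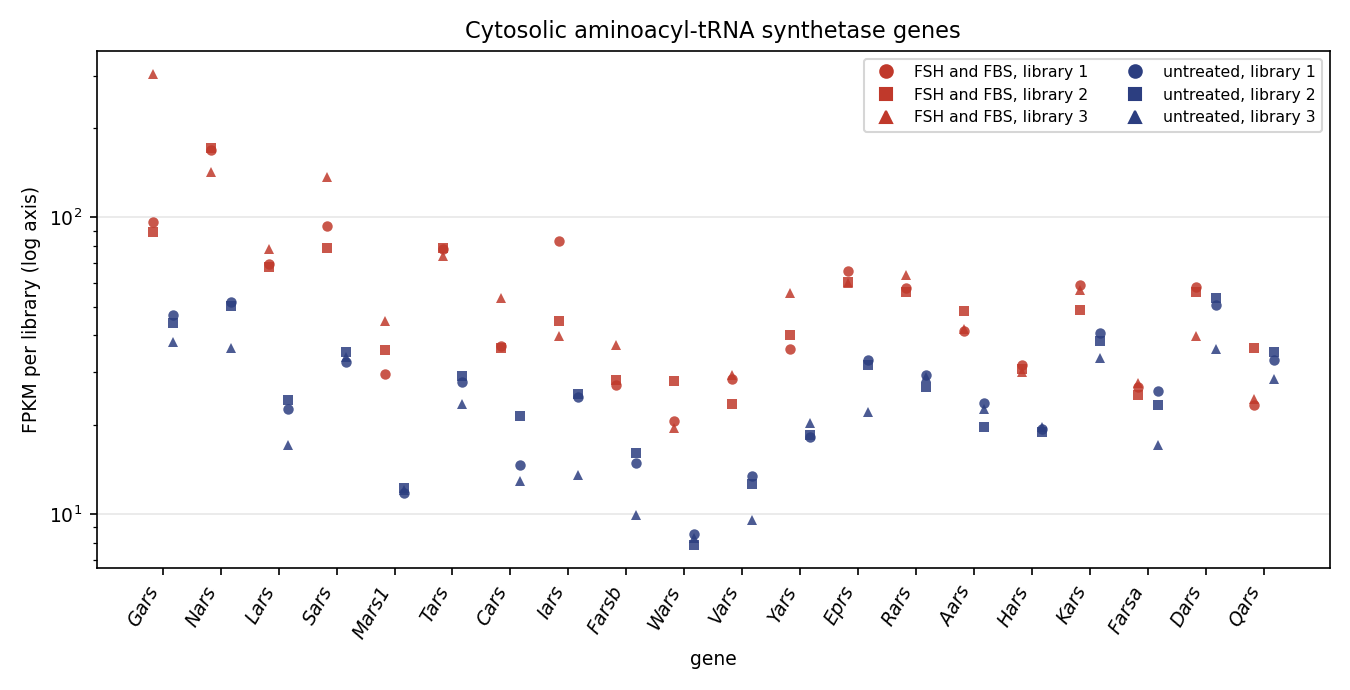
FPKM of the 20 cytosolic synthetase genes in each library, on a log axis, with FSH and FBS libraries in red left of untreated libraries in blue and genes ordered by log2 fold change. For 17 genes all red points lie above all blue ones; Farsa, Dars and Qars overlap.

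With libraries 1 and 2 of each group averaged, 1 of the 20 cytosolic genes passed the test, Lars, and 0 of the 14 mitochondrial genes did. By the same limma fit 1.68% of all genes were called higher and 0.687% lower, with n = 2 per group. With same-numbered samples as a replicate block, limma called 14 cytosolic genes and 1 mitochondrial gene, Tars2, higher and none lower, against 11.5% of all genes higher and 4.51% lower. The cytosolic genes not called with the block were Aars, Dars, Farsa, Hars, Kars and Qars. Libraries 1 and 2 being 1 sample, the block rests on 2 pairs, and the labels do not say what a number marks. At an unadjusted limma p under 0.05 in the fit without the block stood 15 cytosolic and 2 mitochondrial genes, against 16.5% of all genes. Taking all 6 libraries as separate replicates, limma called 15 cytosolic and 2 mitochondrial genes higher and none lower, against 10.8% higher and 3.88% lower of all genes. If libraries 1 and 2 are repeat measurements, that fit understates its p-values. Without FSH and FBS library 3 the first fit called 4 cytosolic genes, Iars, Lars, Nars and Tars, and without untreated library 3 it called none. A gene that did not pass is not shown to be equal in the groups.

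Libraries 1 and 2 and library 3 gave the same direction when read apart. The cytosolic median log2 ratio was 1.004 from libraries 1 and 2 and 1.45 from library 3, and the mitochondrial one was 0.22 and 0.38, against 0.14 and 0.35 over all genes. In 19 of 20 cytosolic and 8 of 14 mitochondrial genes the ratio was above 0 both times, against 51.1% of all genes.

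**Figure D2:**
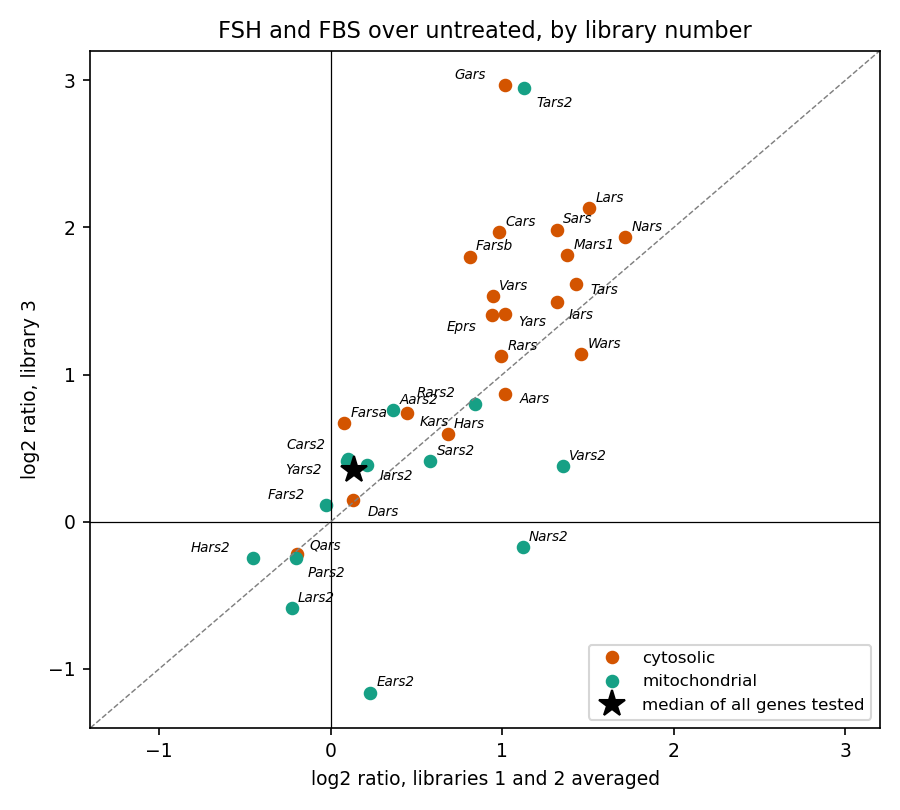
Log2 ratio of FSH and FBS over untreated cells from libraries 1 and 2 averaged (x axis) and from library 3 (y axis) for each tested synthetase gene, with the median of all genes tested as a star and the line of equal ratios dashed. Of the 20 cytosolic genes, 19 lie above 0 on both axes, and Gars and Tars2 stand far above the line.

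Lars, leucyl-tRNA synthetase, a member of the multisynthetase complex that also serves as a leucine sensor for mTORC1, was the member that passed. It had 69.4, 67.7 and 78.4 FPKM in FSH and FBS cells, against 22.6, 24.3 and 17.1 FPKM in untreated cells. Every FSH and FBS value was over 2-fold above every untreated one. The means were 73.5 ± 6.97 FPKM in FSH and FBS cells and 20.3 ± 4.49 FPKM in untreated cells (SD, n = 2 each), with a log2 fold change of 1.82 (SE 0.36, limma adjusted p = 0.041). The call was kept in 12 of 18 other settings, with adjusted p from 0.0019 to 0.33. It was lost without untreated library 3 (adjusted p = 0.33) and under each of the 3 rescalings (0.086, 0.091 and 0.071), where the log2 fold change lay between 1.46 and 1.56. With first exons alone the adjusted p was 0.086, and with unlisted genes as 0 it was 0.066.

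Nars, which charges asparagine, had the highest cytosolic level in FSH and FBS libraries 1 and 2. Its values were 168.8, 171.6 and 141.5 FPKM in FSH and FBS cells, against 52.0, 50.3 and 36.3 FPKM in untreated cells. The groups were far apart, with a log2 fold change of 1.83 (SE 0.38, limma adjusted p = 0.054, and 0.0033 with the block). Mars1, methionyl-tRNA synthetase and another complex member, had 29.7, 35.8 and 44.7 FPKM in FSH and FBS cells, against 11.7, 12.2 and 12.0 FPKM in untreated cells. The untreated libraries were close together, and the log2 fold change was 1.60 (SE 0.35, limma adjusted p = 0.062, and 0.0026 with the block). Tars, threonyl-tRNA synthetase, a free enzyme, had 78.1, 78.7 and 74.1 FPKM in FSH and FBS cells, against 27.9, 29.1 and 23.5 FPKM in untreated cells. Its log2 fold change was 1.52 (SE 0.34, limma adjusted p = 0.068, and 0.0063 with the block), with little spread within either group. Sars, which charges serine, had 93.5, 78.5 and 136.9 FPKM in FSH and FBS cells, against 32.5, 35.2 and 33.9 FPKM in untreated cells. Library 3 was the highest of its FSH and FBS values, and the log2 fold change was 1.65 (SE 0.38, limma adjusted p = 0.073, and 0.006 with the block). Cars, cysteinyl-tRNA synthetase, had 36.7, 36.4 and 53.6 FPKM in FSH and FBS cells, against 14.6, 21.4 and 12.9 FPKM in untreated cells. Its groups were separate too, at a log2 fold change of 1.48 (SE 0.38, limma adjusted p = 0.097, and 0.008 with the block). Its values rest on the first exons, except in untreated library 2. There the last exons summed to 21.4 FPKM and the first exons to 18.2 FPKM, whereas in the other libraries the last exons reached at most 2.15 FPKM, and from last exons alone the log2 fold change was -1.34.

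**Figure D3:**
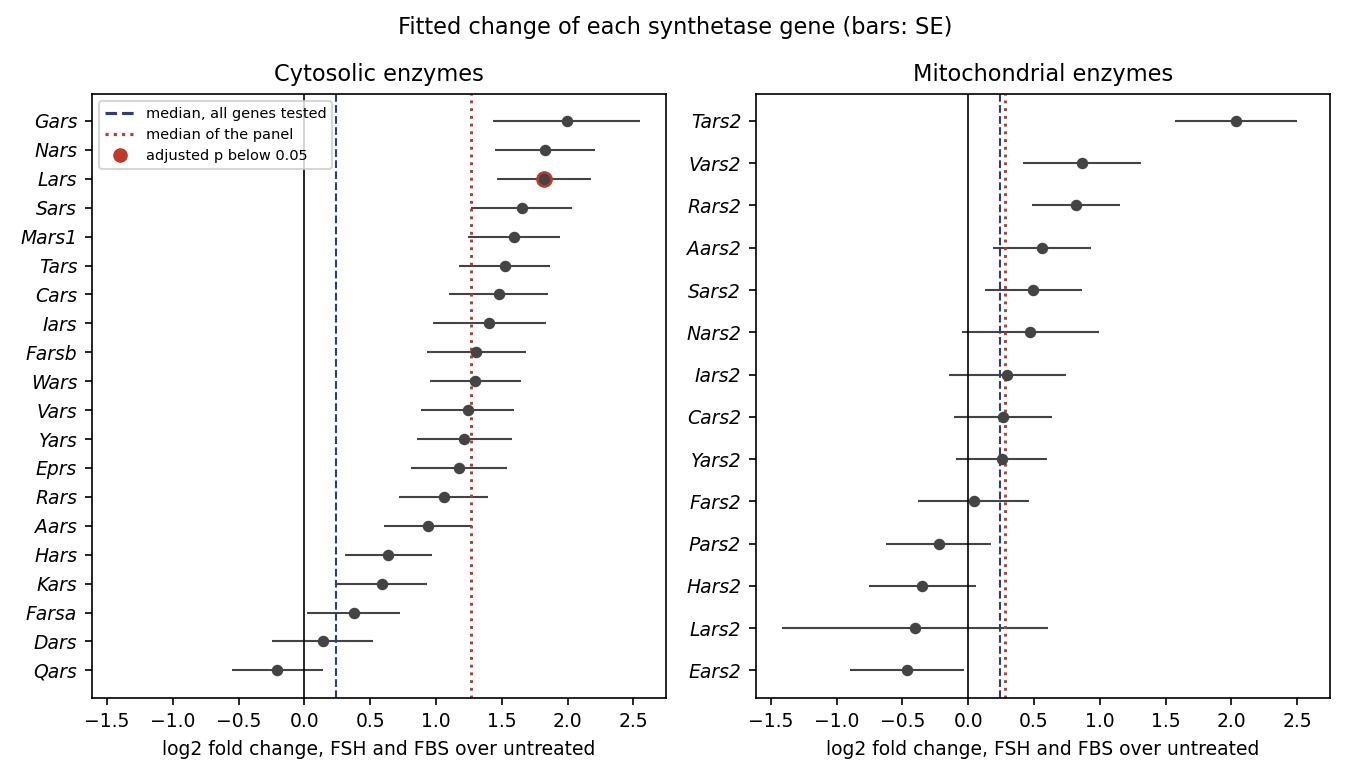
Log2 fold change of FSH and FBS over untreated cells for the 20 cytosolic (left) and 14 mitochondrial genes tested (right), with bars for the SE; the dashed line is the median of all genes tested (0.24), the dotted line the median of the panel (1.27 and 0.28), and the red ring marks Lars. All cytosolic genes but Qars lie right of 0 (Dars turned under the 3 rescalings), whereas most mitochondrial genes scatter around the dashed line.

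Gars, glycyl-tRNA synthetase, which serves both compartments from 1 gene, had a log2 fold change of 1.99 (SE 0.56, limma adjusted p = 0.13, and 0.0075 with the block), which was 1.14 without FSH and FBS library 3. It stood at 96.4, 89.1 and 303.3 FPKM in FSH and FBS cells, against 46.7, 44.1 and 37.9 FPKM in untreated cells. The 303.3 FPKM of library 3 came from the last exon, while the first exon had 96.4, 89.1 and 81.4 FPKM in FSH and FBS cells, against 37.4, 37.0 and 27.8 FPKM in untreated cells. The groups were separate on either measure, and with first exons alone the log2 fold change was 1.41. Kars, lysyl-tRNA synthetase, the other enzyme of both compartments, had 59.2, 48.7 and 56.6 FPKM in FSH and FBS cells, against 40.65, 38.2 and 33.6 FPKM in untreated cells, a log2 fold change of 0.59. In human cells KARS1 makes its cytosolic and mitochondrial forms by skipping or including an exon near its start. The mouse files list a cassette exon of Kars at chromosome 8, 112008482 to 112008539, whose included form held 0.40, 0.82 and 6.76 FPKM in FSH and FBS cells, against 0.68, 3.01 and 1.54 FPKM in untreated cells. The included share of that exon was 14.51%, 11.45% and 59.6% in FSH and FBS cells, against 8.58%, 28.77% and 39.68% in untreated cells. Another listed cassette exon of Kars, at 112008207 to 112008386, had shares of 4.01%, 13.19% and 9.19%, against 18.24%, 21.18% and 7.3%. The groups overlapped for both exons, and whether either is the counterpart of the human exon is not given in the sources used here.

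Phenylalanyl-tRNA synthetase is built from an alpha and a beta subunit that work as one enzyme. Farsb, the beta subunit, had 27.3, 28.4 and 37.0 FPKM in FSH and FBS cells, against 14.8, 16.02 and 9.91 FPKM in untreated cells, a log2 fold change of 1.31 (SE 0.38, limma adjusted p = 0.14, and 0.014 with the block). Farsa, the alpha subunit, had 26.8, 25.3 and 27.6 FPKM in FSH and FBS cells, against 25.9, 23.2 and 17.0 FPKM in untreated cells, a log2 fold change of 0.37 (SE 0.36, limma adjusted p = 0.65). The Farsb groups were separate and the Farsa groups overlapped in FSH and FBS library 2 and untreated library 1; the difference between the subunits was not tested.

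Among the other free enzymes all values were separate between the groups. The log2 fold change was 1.30 for Wars (tryptophan), 1.24 for Vars (valine), 1.21 for Yars (tyrosine), 0.94 for Aars (alanine) and 0.64 for Hars (histidine), with limma adjusted p from 0.11 to 0.39. With the block Wars, Vars and Yars had limma adjusted p from 0.0068 to 0.018. Aars, for instance, had 41.4, 48.2 and 42.1 FPKM in FSH and FBS cells, against 23.7, 19.6 and 22.6 FPKM in untreated cells. The Wars values rest on its first exons. Its last exon held only 0.094, 0.105 and 0.117 FPKM in FSH and FBS cells, against 0.113, 0.175 and 0.379 FPKM in untreated cells. Over the 12 free enzymes the median log2 fold change was 1.30, and over the 8 enzymes of the complex it was 1.12.

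The complex members ranged more widely, from Lars at 1.82 to Qars at -0.21 on the log2 scale. Eprs, which charges both glutamate and proline, was at 1.17 and Rars, for arginine, at 1.06, with limma adjusted p of 0.16 and 0.18, and of 0.026 and 0.0397 with the block. Dars, aspartyl-tRNA synthetase, was the cytosolic gene nearest to no change. It had 58.1, 56.2 and 39.9 FPKM in FSH and FBS cells, against 50.6, 53.5 and 35.9 FPKM in untreated cells. Library 3 was the lowest in both groups, and the log2 fold change of 0.14 (SE 0.38, limma adjusted p = 0.89) turned to between -0.25 and -0.13 under the 3 rescalings. Qars, glutaminyl-tRNA synthetase, had 23.2, 36.1 and 24.3 FPKM in FSH and FBS cells, against 33.0, 35.2 and 28.5 FPKM in untreated cells, with overlapping groups (limma adjusted p = 0.81). Of the scaffold genes, Eef1e1 had 60.8, 59.0 and 63.6 FPKM in FSH and FBS cells, against 29.0, 27.5 and 27.5 FPKM in untreated cells, and Aimp2 had 17.5, 17.6 and 28.5 FPKM in FSH and FBS cells, against 13.5, 16.04 and 12.0 FPKM in untreated cells. Neither passed (limma adjusted p = 0.15 and 0.40; Eef1e1 had 0.031 with the block), and with Aimp1 at a log2 fold change of 0.07, 0 of the 3 scaffold genes were called.

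Iars, isoleucyl-tRNA synthetase of the complex, had 83.0, 44.8 and 39.8 FPKM in FSH and FBS cells, against 24.8, 25.3 and 13.5 FPKM in untreated cells (log2 fold change 1.41, SE 0.43, limma adjusted p = 0.16, and 0.0074 with the block). Its first exon at the annotated start held 53.5, 43.7 and 2.30 FPKM in FSH and FBS cells, against 9.60, 12.3 and 1.96 FPKM in untreated cells. That exon held most of the first-exon signal in FSH and FBS libraries 1 and 2, and less than other first exons together in FSH and FBS library 3 and in all untreated libraries. First exons inside the gene, at chromosome 13, 49714420 or 49714607 to 49714897, held 29.2 and 34.9 FPKM in FSH and FBS libraries 1 and 3, were unlisted in library 2, and held 15.1, 12.9 and 8.54 FPKM in untreated cells. The last exon, common to these forms, had 52.8, 43.7 and 34.9 FPKM in FSH and FBS cells, against 23.6, 25.3 and 13.5 FPKM in untreated cells, again with separate groups.

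On the median, mitochondrial synthetase genes stood lower in FPKM than cytosolic ones, and the ratio of the medians was larger after FSH and FBS. The median over 20 cytosolic genes was 49.6, 46.5 and 49.2 FPKM in FSH and FBS cells, against 25.4, 24.8 and 21.1 FPKM in untreated cells. Over 14 mitochondrial genes it was 8.20, 8.09 and 6.98 FPKM in FSH and FBS cells, against 6.85, 7.37 and 5.55 FPKM in untreated cells. The ratio of the medians was 6.05, 5.75 and 7.04 in FSH and FBS cells and 3.71, 3.37 and 3.81 in untreated cells, with no overlap. All genes tested had medians of 11.2, 11.2 and 10.4 FPKM in FSH and FBS cells, against 10.3, 10.3 and 8.24 FPKM in untreated cells.

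**Figure D4:**
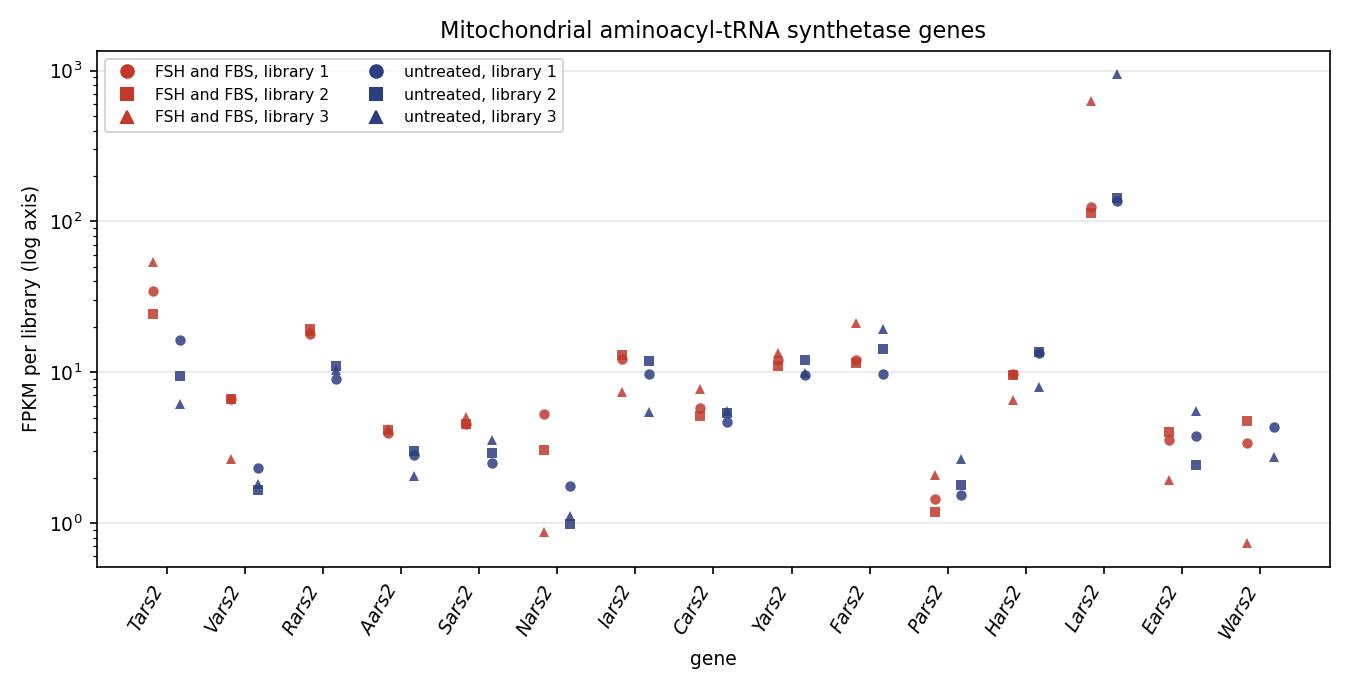
FPKM of the 15 mitochondrial synthetase genes with a value in each library, on a log axis, with FSH and FBS libraries in red left of untreated libraries in blue and genes ordered by log2 fold change, Wars2 (untested) last. The 5 genes Tars2, Vars2, Rars2, Aars2 and Sars2 have all red points above all blue ones, and Lars2 stands apart in library 3 of both groups.

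Tars2, mitochondrial threonyl-tRNA synthetase, had the largest mitochondrial difference. It had 34.4, 24.2 and 53.8 FPKM in FSH and FBS cells, against 16.3, 9.39 and 6.12 FPKM in untreated cells (log2 fold change 2.04, SE 0.46, limma adjusted p = 0.068, and 0.0023 with the block). Those values rest on several last exons; first exons summed to 25.5, 11.8 and 3.13 FPKM in FSH and FBS cells, against 4.04, 2.85 and 4.32 FPKM in untreated cells, with overlapping groups and a log2 fold change of 0.89. Rars2, for mitochondrial arginine, had 18.0, 19.3 and 18.7 FPKM in FSH and FBS cells, against 9.0, 10.9 and 10.3 FPKM in untreated cells. Both groups were tight and apart, at a log2 fold change of 0.82 (SE 0.34, limma adjusted p = 0.28). Vars2, for valine, had 6.62, 6.66 and 2.66 FPKM in FSH and FBS cells, against 2.31, 1.67 and 1.81 FPKM in untreated cells (log2 fold change 0.87, SE 0.45, limma adjusted p = 0.39). Aars2, for alanine, had 3.93, 4.16 and 4.17 FPKM in FSH and FBS cells, against 2.82, 3.004 and 2.05 FPKM in untreated cells (log2 fold change 0.56, SE 0.37, limma adjusted p = 0.50). Both were low genes whose groups did not overlap, and Sars2, for serine, was a further one at a log2 fold change of 0.50. For Vars2 this did not hold on every measure. Its first-exon sums were 6.62, 6.66 and 1.16 FPKM in FSH and FBS cells, against 2.31, 1.67 and 1.46 FPKM in untreated cells, and overlapped. Its last-exon sums were 2.43, 3.10 and 2.66 FPKM, against 0.83, 1.03 and 1.81 FPKM, and did not.

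The remaining mitochondrial genes had overlapping groups. Fars2, mitochondrial phenylalanyl-tRNA synthetase, lay nearest to no change, with 12.0, 11.6 and 21.1 FPKM in FSH and FBS cells, against 9.76, 14.2 and 19.4 FPKM in untreated cells (log2 fold change 0.04, SE 0.42, limma adjusted p = 0.98). Its direction turned under the 3 rescalings. Nars2 had a log2 fold change of 0.47, which was 1.20 without FSH and FBS library 3. Iars2, Cars2 and Yars2 had log2 fold changes of 0.30, 0.26 and 0.25, and Pars2, Hars2, Lars2 and Ears2 of -0.22, -0.35, -0.41 and -0.47. Lars2, mitochondrial leucyl-tRNA synthetase, stood out by library and not by group: it had 123.8, 113.9 and 630.2 FPKM in FSH and FBS cells, against 136.7, 141.9 and 945.5 FPKM in untreated cells. In library 3 of each group only its last exon, at chromosome 9, 123461499 to 123462664, was listed, and without untreated library 3 the log2 fold change turned to 0.97. Ears2, for glutamate, had 3.57, 4.02 and 1.93 FPKM in FSH and FBS cells, against 3.75, 2.42 and 5.56 FPKM in untreated cells. Wars2, for tryptophan, was listed at 3.40, 4.76 and 0.73 FPKM in FSH and FBS cells and at 4.32 and 2.72 FPKM in untreated libraries 1 and 3, and was not tested.

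Intron retention and exon skipping gave a further readout. Over 20 introns in 9 synthetase genes for which spliced and retained forms were both listed, the retained share lay lower in all FSH and FBS libraries than in all untreated ones for 2 and higher for 0. Of all 1901 such introns 14.7% were lower in this way and 0.579% higher, so the synthetase count lies near that of all genes. Forms unlisted in a library were set to 0. In Farsa, the intron at chromosome 8, 84868086 to 84868224, was retained in 9.90%, 8.09% and 9.85% in FSH and FBS cells, against 27.5%, 14.2% and 12.8% in untreated cells. In Ears2, the intron at chromosome 7, 122044432 to 122044513, was retained in 0%, 0% and 4.88%, against 10.9%, 13.7% and 36.6%, at a summed level of 1.93 to 5.56 FPKM. Among 15 cassette exons in 9 genes, none had separate groups, and the share over all cassette exons was not computed.

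Apart from the GCN2 and ATF4 branch, genes that surround the charging of tRNA were not called without the block; with it Gatc, Tsfm, Gfm1 and Xpot were (limma adjusted p = 0.029, 0.026, 0.047 and 0.0021). Of the 4 mitochondrial charging partners, 0 passed: Gatc, of the amidotransferase that makes mitochondrial Gln-tRNA, had 10.8, 9.54 and 10.6 FPKM in FSH and FBS cells, against 5.92, 6.76 and 3.33 FPKM in untreated cells, and Qrsl1, its catalytic subunit, had a log2 fold change of 0.40. Of 2 editing genes tested, Dtd1 and Dtd2, D-aminoacyl-tRNA deacylases, stood at -0.39 and 0.36. Of 8 elongation factor genes 0 passed, with Tsfm and Gfm1, both mitochondrial, at 1.13 and 0.89 on the log2 scale. Of 3 selenocysteine genes 0 passed, with Eefsec, its elongation factor, at 0.51 and Sepsecs, its synthase, at 0.25. Xpot, the nuclear exporter of tRNA, had 29.8, 28.5 and 21.3 FPKM in FSH and FBS cells, against 9.92, 9.77 and 6.40 FPKM in untreated cells (log2 fold change 1.53, SE 0.38, limma adjusted p = 0.090), and Trnt1, which adds the CCA end, stood at 0.60; 0 of these 3 genes passed.

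Of the 14 tested genes of the GCN2 and ATF4 branch, 6 were called higher and none lower in the fit without the block. Of all genes, 1.68% were called higher and 0.687% lower. The median log2 fold change of the 14 was 1.503, against 0.24 over all genes. It was above 0 for 13 of them and below 0 for 1, Eif2ak4, the gene of GCN2, at -0.72 (limma adjusted p = 0.50). The Eif2ak4 log2 ratio was 0.18 from libraries 1 and 2 and -1.62 from library 3, and its groups overlapped. With the replicate block 10 of the 14 were called higher, against 11.5% of all genes. The list also holds Eif2ak3, the gene of another eIF2alpha kinase, at 0.42, and Eif2s1, the gene of eIF2alpha, at 0.17. Neither was called with or without the block, and the activity of either kinase was not measured. This list was fixed with earlier results of these data known. Atf5, a transcription factor of the branch, had 181.4, 178.2 and 221.4 FPKM in FSH and FBS cells, against 23.6, 24.2 and 29.0 FPKM in untreated cells (log2 fold change 2.87, limma adjusted p = 0.0092). Nupr1, a stress-induced nuclear protein, had 583.4, 646.5 and 1178 FPKM in FSH and FBS cells, against 78.0, 88.9 and 63.4 FPKM in untreated cells (log2 fold change 3.53, limma adjusted p = 0.011). All FSH and FBS libraries lay above all untreated ones for both. Asns, which makes asparagine, the substrate of Nars, had 146.0, 201.1 and 206.0 FPKM in FSH and FBS cells, against 20.2, 20.9 and 22.6 FPKM in untreated cells (limma adjusted p = 0.0078). Phgdh and Psat1, both of serine synthesis, rose by 3.01 and 4.07 on the log2 scale (limma adjusted p = 0.0100 and 0.0044), and Chac1, which degrades glutathione, by 4.23 (0.0031). Serine is the substrate of Sars. Without untreated library 3 the Atf5, Nupr1 and Phgdh calls were lost (adjusted p = 0.052, 0.17 and 0.0606), and the Nupr1 call also by median of ratios (0.053). Atf4 itself had 373.9, 371.1 and 440.6 FPKM in FSH and FBS cells, against 130.1, 139.4 and 134.8 FPKM in untreated cells (log2 fold change 1.58, SE 0.41, limma adjusted p = 0.11, and 0.0201 with the block), with separate groups; Sesn2, a leucine-responsive inhibitor of mTORC1, stood at 1.43 (limma adjusted p = 0.095, and 0.0033 with the block). Trib3, a target that restrains ATF4 signalling, was listed at 34.7, 35.3 and 21.3 FPKM in FSH and FBS cells and at 0.011 and 0.385 FPKM in untreated libraries 1 and 2, and was not tested. The TGATGNAA core was in the promoters of 4 of the 16 genes of this branch. Over the cytosolic synthetases with a promoter, the median log2 fold change was 1.41 for the 5 with the core and 0.88 for the 8 without it. Over all tested genes it was 0.38 for 168 with and 0.24 for 6948 without. Mars1 and Sars, at 1.60 and 1.65, are among those without it in this window. Cars, Hars, Lars, Nars, Rars, Vars and Wars could not be searched. Their log2 fold changes were 1.48, 0.64, 1.82, 1.83, 1.06, 1.24 and 1.30.

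By catalytic class, the 16 tested class I enzymes of both compartments had a median log2 fold change of 0.96 and the 17 class II enzymes one of 0.59; Eprs, which holds both kinds of domain, was in neither. Both classes held cytosolic genes with separate groups and mitochondrial genes with overlapping ones.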

How the data were processed

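RNA tables of 6 libraries were used, and small-RNA libraries were left aside. Per the file headers, the authors deposited an FPKM value for each transcript event, such as a first or last exon, a cassette exon or a retained intron. The submitters' processing notes name HISAT2 2.0.1; assembler, build and annotation are not given in the sources used here. Positions are as in the files, and those of all 35 listed members overlapped RefSeq on GRCm38.p6. With no read counts the depth is unknown, and no counting interval is given.

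A gene's value was computed as the larger of its first-exon and last-exon sums on its main strand; unlisted genes were missing. Symbols matched 13281 of 13318 genes, Mars1 through its older symbol. Libraries 1 and 2 of a group, far closer than other pairs, were averaged into 1 sample. The labels name no separate cultures or animals, so the p-values describe the spread of these samples alone, which may be technical. log2(FPKM + 1) was tested with limma 3.58.1 (R 4.3.3; eBayes with trend, two-sided), with Benjamini-Hochberg adjustment at 0.05 over the 9022 genes that every library listed and whose mean reached 1 FPKM, and the code was tested on simulated data. Deviations from the group means correlated at 0.32, 0.31 and 0.51 between same-numbered libraries, a pairing read from the data and not from the labels, so a fit with the number as a replicate block is given where it changes a call; 3 of 6 libraries correlated best with their own number. The members, lists and tests were chosen with earlier results of these data known. Values in every library are given by rule for called members, for the 6 cytosolic and 4 mitochondrial members with the smallest adjusted p and for the one nearest to no change in each set; those of other members were added after their values were seen. Of each pathway list the called genes and up to 2 more with the smallest adjusted p are named. Trib3, Eif2ak4, Eif2ak3 and Eif2s1 were added. Splice forms were read where both summed to at least 1 FPKM in each library.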

Additional observations from a re-analysis of the deposited data

How the results depend on the processing

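The cytosolic median log2 fold change of 1.27 was 1.013 by median of ratios, 0.99 with equal sums, 0.97 by quantile normalization, 1.004 from libraries 1 and 2 alone and 1.45 from library 3 alone, the last 2 chosen after seeing the data. The mitochondrial median of 0.28 was 0.025 with equal sums. Cytosolic minus mitochondrial was 0.85 with last exons alone and 0.78 from libraries 1 and 2 alone. Leaving out 1 library gave 1.06 to 1.27 for the cytosolic and 0.23 to 0.38 for the mitochondrial median and 0.68 to 1.04 for their difference, the lowest without untreated library 3. The rescalings took the median of all genes from 0.24 to between -0.01 and 0.01.

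Calls moved more. With all 6 libraries as separate replicates and no replicate block, 15 cytosolic and 2 mitochondrial genes were called (all genes: 973 higher, 350 lower). With the replicate block on averaged samples 14 and 1 were called (1040 and 407), and with the block on all 6 libraries 16 and 3 (1516 and 584). The block on averaged samples changed no call of a named gene beyond those given with it. No cytosolic gene was called by median of ratios (all genes: 49 higher, 41 lower), with equal sums (59 and 45), by quantile normalization (94 and 75), with first exons alone (42 and 21) or with unlisted genes as 0, against 2 at a mean of at least 5 FPKM and 3 with last exons alone. The last 2 settings called 1 mitochondrial gene each. Leaving out 1 library gave 0 to 4 cytosolic calls, and 60 to 272 higher and 41 to 112 lower over all genes, the fewest without untreated library 3 and the most without FSH and FBS library 3. It gave 0 to 1 mitochondrial calls, the 1 being Tars2 without untreated library 1. The cause was not tested.

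No called gene turned direction. Uncalled ones did: Cars to -1.34 with last exons alone; Dars to -0.13 by median of ratios, -0.15 with equal sums and -0.25 by quantile normalization; Fars2 to -0.22, -0.24 and -0.25 there; Yars2 to -0.018 with equal sums and -1.175 with last exons alone. Leaving out 1 library gave -0.1219 to 0.3944 for Dars, -0.3516 to 0.3697 for Fars2, -0.1339 to 0.6444 for Iars2, -1.605 to 0.9708 for Lars2 and -0.4326 to 0.0032 for Pars2, each turning without untreated library 3 except Fars2, which turned without FSH and FBS library 3 or untreated library 1. Without library 3 a group is 1 sample, assumed to vary like the other group. Unknown depth leaves the precision of low mitochondrial genes unmeasured.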
